A study of Mus with 2 samples.

Results

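Immediate early genes are transcribed within minutes of a growth factor, stretch, injury or stress signal, without the need for new protein synthesis. Fos and Fosb encode FOS-family and Jun and Junb encode JUN-family subunits of the AP-1 transcription factor, Egr1 encodes a zinc-finger factor induced by the MAP kinase pathway, Atf3 a stress-induced repressor of the ATF/CREB family, and Ier2 a nuclear protein of the same early response. Hspa1a and Hspa1b are the neighbouring, nearly identical genes for the inducible HSP70 chaperone, which heat shock factor switches on when proteins misfold. In kidney, as in other organs, several of these genes are also known to rise while tissue is dissociated into single cells, and the labels do not describe how that was done here.

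The 9 genes were taken by symbol from the 28693 features of the count matrices, and every one of the 9 was found (Fos ENSMUSG00000021250, Fosb ENSMUSG00000003545, Jun ENSMUSG00000052684, Junb ENSMUSG00000052837, Egr1 ENSMUSG00000038418, Atf3 ENSMUSG00000026628, Ier2 ENSMUSG00000053560, Hspa1a ENSMUSG00000091971, Hspa1b ENSMUSG00000090877). In the RefSeq annotation of GRCm38.p6, which is the mm10 build, Fos lies at chr12:85473890-85477274, Fosb at chr7:19302696-19310118, Jun at chr4:95049036-95052222 and Atf3 at chr1:191170296-191183333. Junb (chr8:84976909-84978748) and Ier2 (chr8:84661331-84662852) share a chromosome. Hspa1b (chr17:34956429-34959238) and Hspa1a (chr17:34969359-34972156) are 10120 bases apart with no other gene of the annotation between them. Because the pair is so similar, reads that fit both may have been split or dropped before counting, and how the counting treated them is not given in the sources used here. The genes were tested separately as counted, and their results are not independent of each other.

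The genes were measured in single-cell libraries of kidneys from newborn (P0) mice of the genotype Rbpj c/- ; Foxd1cre/+, in 2 libraries called replicates 1 and 2. The design removes Rbpj, the DNA-binding partner of Notch signalling, with a Cre driven from Foxd1, which is active in the forerunners of the renal interstitium, so the Cre acts in that lineage. The second Rbpj allele is labelled as minus, which is not limited to that lineage and so concerns the epithelium too. The control libraries of the design (Rbpj c/+ ; Foxd1cre/+) carry the same Cre and were not analysed here, so every comparison is between cell types of mutant kidneys and none measures an effect of the mutation. Nothing states that the libraries came from separate animals. The p-values measure only how class differences vary between the 2 libraries, pooled over classes, with the overall shift between libraries taken out.

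The matrices summed to 163405630 unique molecular identifiers (UMIs) in replicate 1 and 135436576 in replicate 2. The limits of 2000 UMIs per barcode and 10% mitochondrial UMIs were met by 6220 and 5149 barcodes, of which 5910 and 4937 remained after removal of likely doublets, with median depths of 11712.5 and 12196 UMIs. The libraries shared 6 of these barcodes. Clusters were named from markers into 12 classes, none with fewer than 20 cells of either library, and 1176 and 970 cells stayed unnamed. In every class each marker was higher than in the other cells of both libraries, except for 1 of the 8 stroma markers, Foxd1, which stood at 42.0 against 33.9 CPM (UMIs per 1000000 UMIs) in replicate 1 and at 23.6 against 32.6 CPM in replicate 2. The neutrophil-like cluster, with 40 and 4 cells, was not tested and stands outside the orders of classes below. It had 25 and 6 UMIs of Junb (128.3 and 512.6 CPM) and 34 and 4 of Ier2 (174.5 and 341.8 CPM).

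Over all kept cells the libraries gave similar levels for most of the genes. Fos stood at 5.50 and 7.39 CPM in replicates 1 and 2, Jun at 100.2 and 120.04, Junb at 25.7 and 25.5, and Ier2 at 64.3 and 66.7. Egr1 stood at 32.0 and 35.9 CPM, Atf3 at 3.96 and 6.64, Hspa1a at 3.37 and 2.65, and Hspa1b at 5.18 and 4.66. Fosb was close to absent, with 56 UMIs in 40 of the 10847 cells, and was too low to enter the test. Free RNA, read from barcodes with more than 100 and at most 300 UMIs, held all 9 genes, for example Jun at 88.9 and 99.7 CPM and Fos at 5.94 and 9.77 CPM. Erythroid-like cells, taken as the class to show the background, had a Jun UMI in 2.61% and 2.37% of cells thinned to 4600 UMIs, against 26.8% and 27.1% of all cells. For Fos these shares were 0 of 230 and 0 of 169 erythroid-like cells against 2.26% and 2.31% of all cells. The median depth of erythroid-like cells was 4349 and 4461 UMIs.

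**Figure D1:**
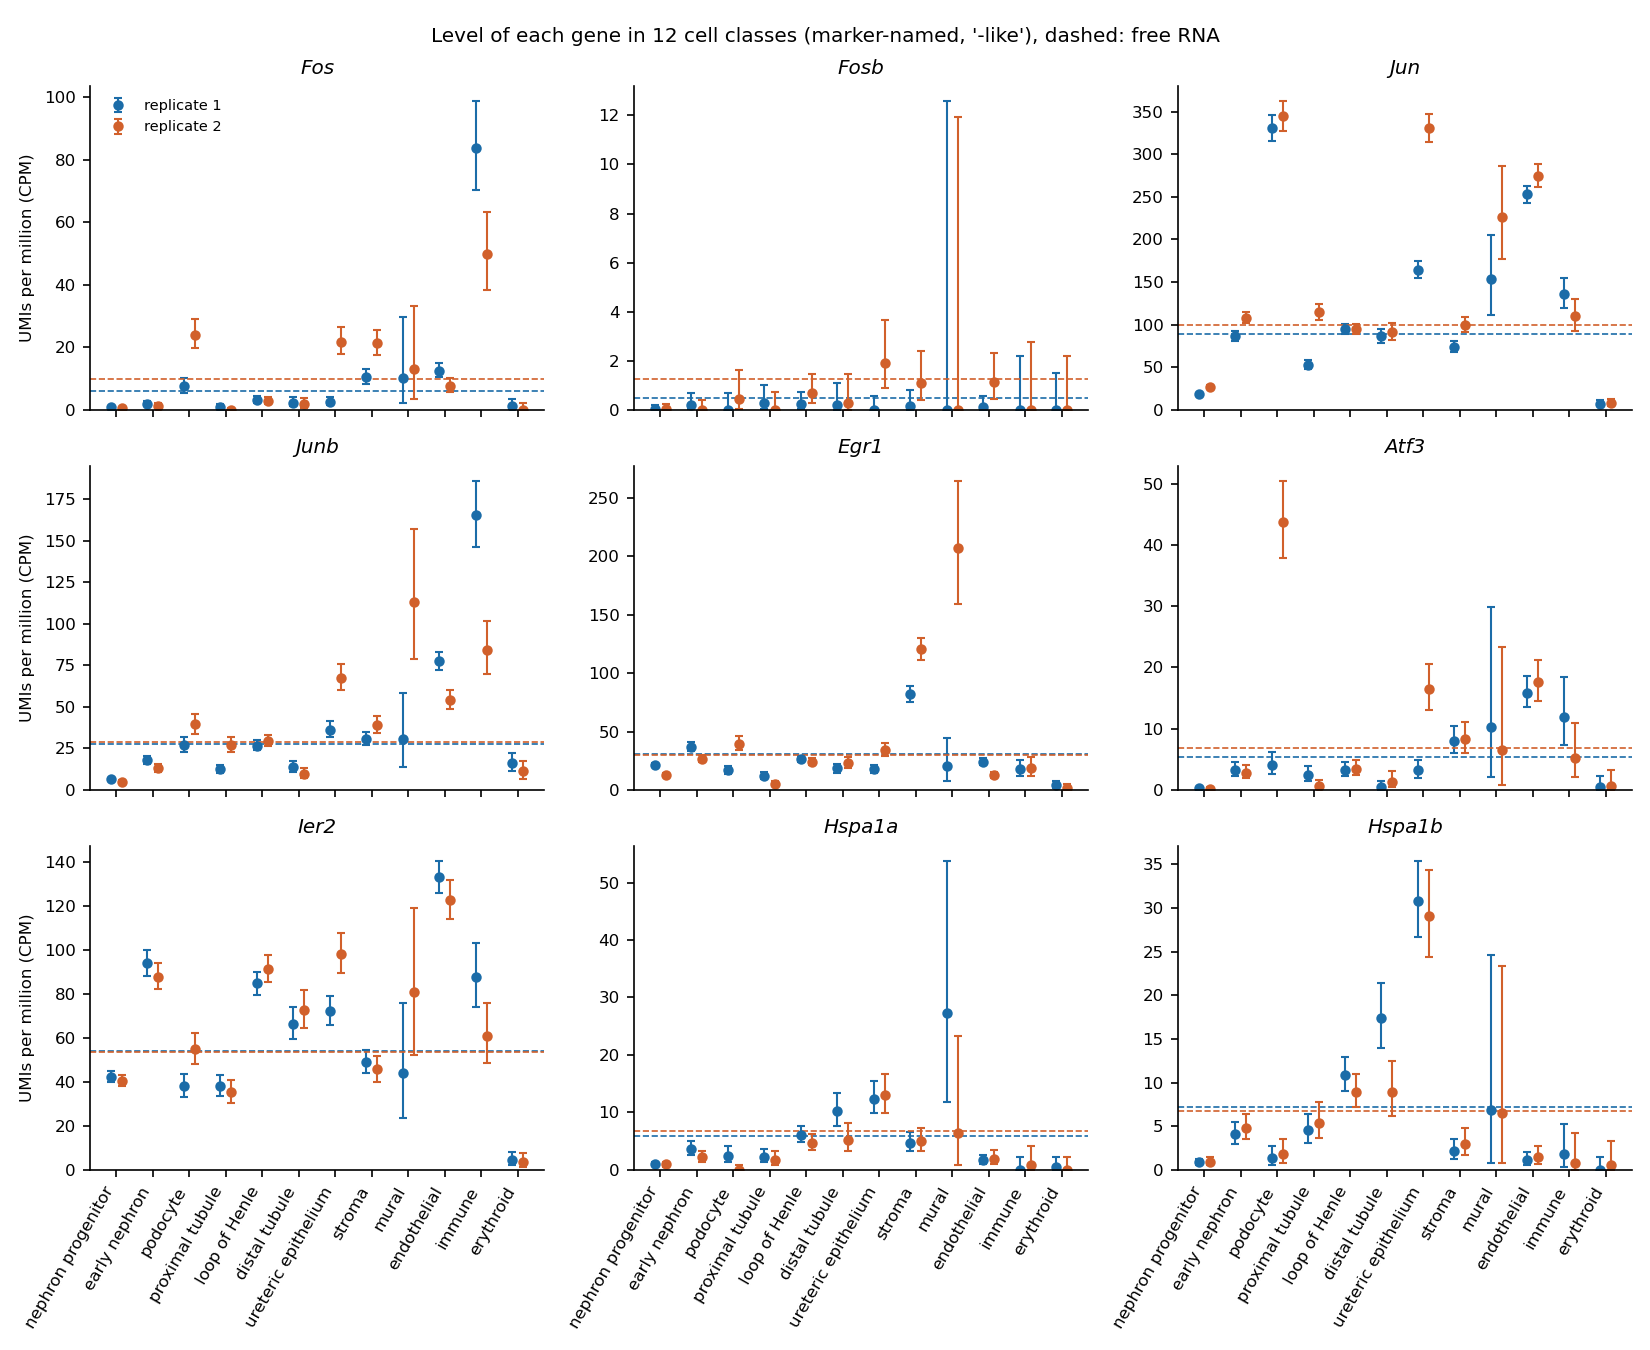
Levels of the 9 genes (CPM of the class, y axis) in 12 cell classes (x axis), with 1 point per library, bars for exact Poisson 95% intervals, which cover counting error only, and dashed lines for the level in free RNA of each library. Fos peaked in immune-like cells (83.6 and 49.8 CPM), Jun in podocyte-like cells (330.3 and 344.3 CPM) and Hspa1b in ureteric epithelium-like cells (30.8 and 29.1 CPM). Nephron progenitor-like cells were below the free RNA of their library for each gene. Their Egr1 (21.3 and 12.7 CPM) and Ier2 (42.4 and 40.6 CPM) lay within the range of the other classes.

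Each class was compared with the unweighted mean of the other classes (erythroid-like cells left out of that mean) by edgeR's quasi-likelihood test on UMIs summed per library and class, with Benjamini-Hochberg adjustment over 15174 genes in each comparison. Of the 96 tests on the 8 measurable genes, 54 passed at an adjusted p under 0.05, with 28 higher and 26 lower. Over all genes 43.7% of tests passed (26.2% higher and 17.6% lower), because classes of cells differ in much of their transcriptome. The direction was the same in both libraries for 52 of the 54. The exceptions were Egr1 in mural-like cells and Ier2 in immune-like cells. The comparisons share their reference classes and are not independent of each other.

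Nephron progenitor-like cells, named after the cap mesenchyme marked by Six2 and Cited1 from which nephrons form, were low in most of these genes. The class includes cluster 4 (325 and 286 cells, score 0.439), which had neither marker among its 10 leading genes. A cluster led, like it, by Fam132a and Col9a1 stayed unnamed at Leiden resolution 0.5. All 8 measurable genes were lower in the joint fit, where 21.2% of all genes were lower in that class, 35.5% higher and 56.8% either. The median log2 change was -2.42, against 0.09 over all genes. Jun stood at 18.6 and 27.0 CPM, Junb at 6.25 and 4.74, Fos at 0.893 and 0.614, and Atf3 at 0.260 and 0.175, each below the free RNA of its library. Without 7 cells that dominate single values elsewhere (below), 7 of the 8 passed, and Egr1 did not (log2 change -0.43, adjusted p = 0.058 by edgeR). Egr1 was the least steady of the 8 there: its change was -0.08 in replicate 1 and -1.15 in replicate 2, and it passed in 7 of 13 alternative analyses. Hspa1a passed in 11 of 13, and at a mitochondrial limit of 5% its change was -0.42 (adjusted p = 0.70, edgeR) against -1.79.

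Of the FOS family only Fos could be ranked. It was highest in immune-like cells, with 83.6 and 49.8 CPM, and no other class reached the lower of these values. Its log2 change there was 4.24 ± 0.41 (SE; edgeR's quasi-likelihood test, adjusted p = 2.3e-09). The next classes by mean were stroma-like (10.4 and 21.4 CPM), podocyte-like (7.52 and 24.0), ureteric epithelium-like (2.60 and 21.8), mural-like (10.2 and 12.9) and endothelial-like (12.6 and 7.69) cells, and the ranges of neighbours in this order overlapped. Stroma-like cells were higher by 1.77 ± 0.41 (adjusted p = 0.00079, edgeR), podocyte-like cells by 1.58 ± 0.44 (0.0030) and endothelial-like cells by 1.14 ± 0.42 (0.026). The podocyte-like change was 0.59 in replicate 1 and 2.30 in replicate 2, where 1 cell held 48 of 107 UMIs, and it was 1.23 without the 7 dominating cells. The endothelial-like change was 1.47 and 0.62 by library and passed in 8 of 13 alternative analyses.

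Fos was low in the tubule and early nephron classes. Loop of Henle-like cells had 3.12 and 2.73 CPM, distal tubule-like cells 2.32 and 1.84 CPM, and early nephron-like cells 1.83 and 1.15 CPM, all below free RNA. Proximal tubule-like cells had 7 UMIs (0.991 CPM) in replicate 1 and 0 UMIs in replicate 2, a count that allows up to 0.579 CPM at 3 UMIs. Fos was lower by edgeR in proximal tubule-like (-3.37 ± 0.89, adjusted p = 0.0021), nephron progenitor-like (-2.97 ± 0.58, 9.3e-05) and early nephron-like cells (-2.10 ± 0.62, 0.0059), and the size of the first rests on a sum of 0. The Fos level of ureteric epithelium-like cells in replicate 2 was set by 1 cell: without it 6.92 of 21.8 CPM remained. Fosb had between 0 and 9 UMIs in each class and library, and no order of classes could be read for it.

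Among JUN family members, Jun was highest in podocyte-like cells, the filtering epithelium of the glomerulus, at 330.3 and 344.3 CPM. Endothelial-like cells followed at 252.7 and 274.8 CPM, then ureteric epithelium-like cells at 164.7 and 330.4 and mural-like cells at 153.3 and 226.4. Podocyte-like cells lay above endothelial-like cells in both libraries, whereas the ranges of endothelial-like and ureteric epithelium-like cells overlapped. The log2 change was 1.61 ± 0.13 in podocyte-like cells (adjusted p = 9.2e-11), 1.30 ± 0.13 in endothelial-like cells (5.0e-09) and 1.03 ± 0.14 in ureteric epithelium-like cells (1.1e-06), all by edgeR's quasi-likelihood test. Immune-like cells stood at 136.2 and 110.1 CPM, above free RNA in both libraries (88.9 and 99.7 CPM). Proximal tubule-like cells, at 52.8 and 114.4 CPM, were below free RNA in replicate 1 and above it in replicate 2. The lowest values were in nephron progenitor-like (18.6 and 27.0 CPM) and erythroid-like cells (7.42 and 7.70 CPM).

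Junb followed another order. Its mean over the libraries was highest, of the 12 tested classes, in immune-like cells at 165.4 and 84.5 CPM, where its log2 change was 2.45 ± 0.26 (adjusted p = 1.4e-08, edgeR). Endothelial-like cells stood at 77.4 and 54.1 CPM (1.29 ± 0.20, 5.4e-06) and ureteric epithelium-like cells at 36.3 and 67.7 CPM (0.74 ± 0.23, 0.012). Mural-like cells ranged from 30.7 to 113.2 CPM on 9 and 35 UMIs, and their change of 1.45 did not pass (adjusted p = 0.12, edgeR). Podocyte-like cells, so high in Jun, did not differ in Junb beyond the error (0.07 ± 0.26, adjusted p = 0.94, edgeR). Junb was lower in nephron progenitor-like (-2.63 ± 0.27), distal tubule-like (-1.63 ± 0.34) and early nephron-like cells (-1.17 ± 0.26).

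In erythroid-like cells the Junb level and its fitted change point apart. The levels, 16.1 and 11.3 CPM, were among the lowest, yet the fitted log2 change was 2.83 ± 0.60 (adjusted p = 0.0017, edgeR). Globin RNA fills these sums, and the normalization factors were 0.083 and 0.080 for erythroid-like sums against 1.11 to 1.39 for the sums of the other classes. It was the only one of the 8 genes to pass there, where 11% of all genes passed (6.7% higher and 4.34% lower), and the median over all genes was -0.45. With RLE size factors the Junb change was 3.09 (adjusted p = 0.00072, edgeR) and that median -0.19, and the share of higher genes among all calls went from 60.7% to 83.0%. In mural-like cells the median went from -0.24 to -0.08 and the share from 65.5% to 78.4%.

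Egr1 was higher in stroma. Stroma-like cells, the interstitial fibroblast lineage that includes cells descended from Foxd1-positive ones, had 82.1 and 120.5 CPM, above the free RNA level of 30.5 and 29.5 CPM. Their log2 change was 2.13 ± 0.23 (adjusted p = 1.4e-08, edgeR), and each library gave a rise (2.08 and 2.40). A further pair of clusters stayed unnamed although their best marker score was stroma: cluster 12 (210 and 206 cells) stood at 135 and 161 CPM and cluster 14 (344 and 311 cells) at 163 and 189 CPM. Mural-like cells, the smooth muscle and renin lineage, had 20.4 CPM on 6 UMIs in replicate 1 and 207 CPM on 64 UMIs in replicate 2, so their change of 2.33 ± 0.62 (adjusted p = 0.0094, edgeR) rested on 1 library. Without replicate 2 it was -0.11. In replicate 2, 1 cell held 31 of the 64 UMIs. Without the 7 dominating cells that library stood at 112 CPM and the change was 1.76.

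The classes that followed overlapped widely. Early nephron-like cells had 36.7 and 26.7 CPM of Egr1, podocyte-like cells 16.7 and 39.5, and endothelial-like cells 24.3 and 12.5. Proximal tubule-like cells were lower, at 12.03 and 5.01 CPM (-1.67 ± 0.39, adjusted p = 0.00071, edgeR). The change was -0.93 in replicate 1, where 1 cell held 35 of 85 UMIs, and -2.51 in replicate 2. Apart from erythroid-like cells, no class was as low in either library.

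Ier2 was found in every class. Of the 12 tested classes, endothelial-like cells were highest at 133.1 and 122.9 CPM (1.09 ± 0.10, adjusted p = 3.3e-10, edgeR), and proximal tubule-like cells had the lowest mean apart from erythroid-like cells, at 38.2 and 35.5 CPM (-0.80 ± 0.13, 6.5e-06). Early nephron-like (94.1 and 87.9 CPM), loop of Henle-like (84.8 and 91.5) and ureteric epithelium-like cells (72.3 and 98.2) were next to the top, with overlapping ranges and calls between 0.32 and 0.40. Nephron progenitor-like cells kept 42.4 and 40.6 CPM and were lower by 0.66 ± 0.11 (7.2e-06, edgeR). Immune-like cells passed in the joint fit (0.39 ± 0.15, adjusted p = 0.039, edgeR), but replicate 2 alone gave -0.02.

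Atf3 was higher in endothelial-like cells. They had 15.9 and 17.6 CPM, with a log2 change of 2.27 ± 0.39 (adjusted p = 2.4e-05, edgeR). Podocyte-like cells had 4.14 and 43.8 CPM, but 169 of the 195 UMIs in replicate 2 came from 1 cell. Without the dominating cells that value was 6.003 CPM and the podocyte-like change fell from 2.50 to 0.58 (adjusted p = 0.11, edgeR). Stroma-like cells, at 8.01 and 8.29 CPM, passed narrowly (1.18 ± 0.49, adjusted p = 0.048, edgeR) and kept the call in 4 of 13 alternative analyses. Atf3 was lowest in nephron progenitor-like cells, with 7 and 4 UMIs.

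Of the HSP70 pair, both genes were higher in ureteric epithelium-like, distal tubule-like and loop of Henle-like cells, though not in every cluster of these classes (below). Ureteric epithelium-like cells had 30.8 and 29.1 CPM of Hspa1b and 12.4 and 13.0 CPM of Hspa1a, and the log2 changes were 3.14 ± 0.18 (adjusted p = 1.2e-13) and 2.201 ± 0.28 (4.4e-07) by edgeR's quasi-likelihood test. Distal tubule-like cells had 17.4 and 8.93 CPM of Hspa1b (1.80 ± 0.23, 3.2e-07) and 10.3 and 5.25 CPM of Hspa1a (1.37 ± 0.34, 0.0016). Loop of Henle-like cells had 10.9 and 8.91 CPM of Hspa1b (1.35 ± 0.20, 4.6e-06) and 6.07 and 4.66 CPM of Hspa1a (0.80 ± 0.30, 0.033).

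Summed, the pair stood at 43.2 and 42.1 CPM in ureteric epithelium-like, 27.7 and 14.2 in distal tubule-like and 16.9 and 13.6 in loop of Henle-like cells. Nephron progenitor-like cells had a sum of 1.79 and 1.84 CPM.

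The levels of the single genes were above free RNA (7.23 and 6.70 CPM of Hspa1b, 5.94 and 6.83 of Hspa1a) for both genes only in ureteric epithelium-like cells in both libraries. Hspa1b was also above it in distal tubule-like and loop of Henle-like cells. The median mitochondrial share was 6.74% and 6.44% in ureteric epithelium-like cells and 6.91% and 6.71% in distal tubule-like cells, against 5.12% and 5.52% over all cells. At a mitochondrial limit of 5% neither class kept 20 cells in each library, so their rises could not be recomputed there. Over all cells that limit took Hspa1b to 1.75 and 2.03 CPM and Hspa1a to 1.84 and 0.928 CPM. In loop of Henle-like cells it left Hspa1b higher (1.15, adjusted p = 0.034, edgeR) and turned Hspa1a to -0.34 (0.78). Within classes, the cells with the higher mitochondrial share had more Hspa1b in 17 of 22 class and library pairs and more Hspa1a in 14. For Egr1 this held in 5 pairs and for Ier2 in 2. Proximal tubule-like cells had higher mitochondrial shares, 7.42% and 7.97%, with 4.53 and 5.40 CPM of Hspa1b and no call in the main fit. There Hspa1b passed in 2 of 12 alternative analyses, with changes from -0.13 to 1.90. Hspa1a passed in 4 of 12, with changes from -1.29 to 1.36. A link of the pair with the mitochondrial share was not tested.

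Immune-like cells, with shallow class sums, held 0 and 1 UMIs of Hspa1a and 3 and 1 of Hspa1b. The fitted Hspa1a change of -3.28 ± 1.18 (adjusted p = 0.024, edgeR) rests on those counts, and Hspa1b did not pass (-1.54 ± 0.65, 0.053). The summed pair, at 1.79 and 1.51 CPM, was close to that of nephron progenitor-like cells. Podocyte-like cells had 2.44 and 0 CPM of Hspa1a and 1.32 and 1.80 CPM of Hspa1b, both lower (-1.38 ± 0.56, 0.040, and -1.53 ± 0.39, 0.0015, edgeR). Neither fall passed at the mitochondrial limit of 5% (-0.15 and -0.20, adjusted p = 0.94 and 0.83). Mural-like cells gave the highest mean of Hspa1a, 27.3 and 6.47 CPM, from only 8 and 2 UMIs (2.77 ± 0.79, adjusted p = 0.015, edgeR). Thinned to equal depth, 16.1% and 14.3% of ureteric epithelium-like cells carried a UMI of either gene, 8.91% and 12.2% of distal tubule-like cells, and 1.12% and 0.907% of nephron progenitor-like cells.

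**Figure D2:**
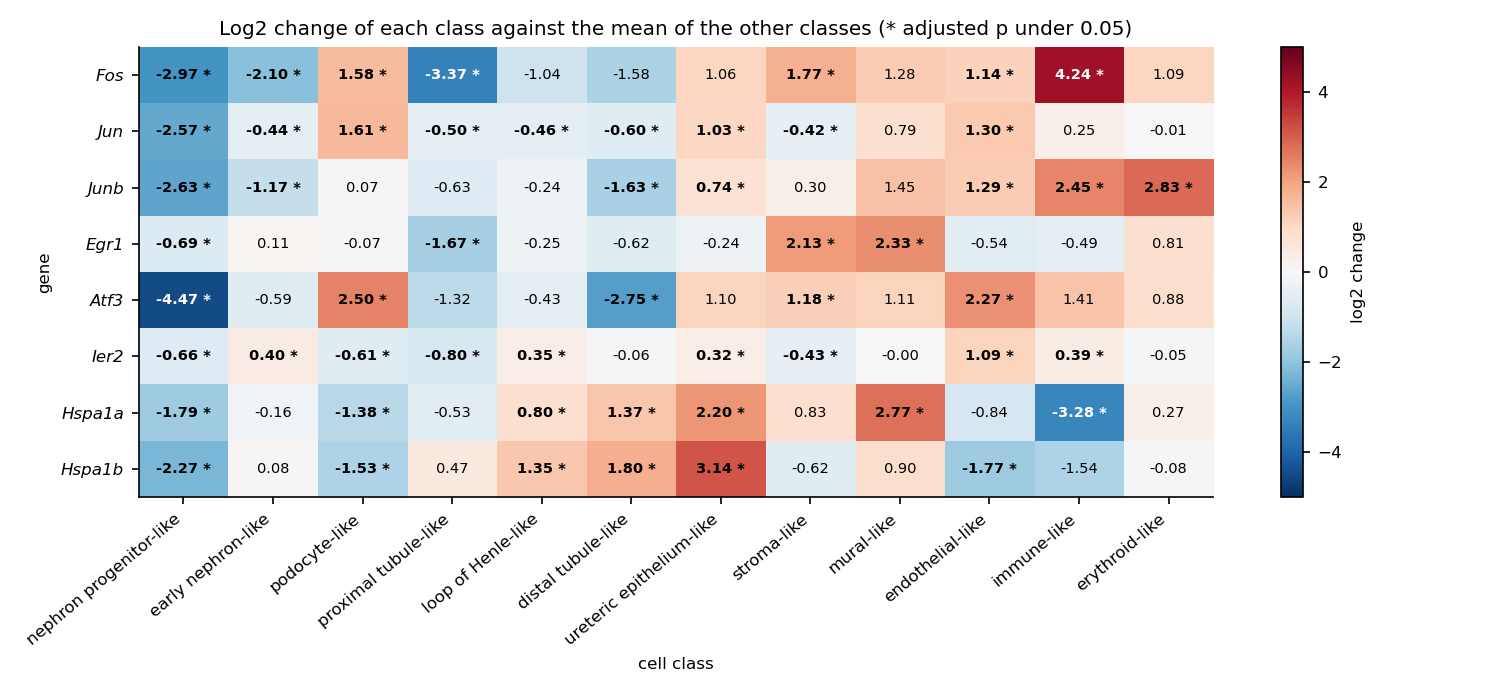
Log2 change of the 8 measurable genes (rows) in each of 12 classes (columns) against the mean of the other classes, with an asterisk where edgeR's adjusted p was under 0.05. All 8 genes were lower in nephron progenitor-like cells, and Hspa1b was higher in loop of Henle-like (1.35), distal tubule-like (1.80) and ureteric epithelium-like cells (3.14).

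By class, the counts and the background were as follows. Endothelial-like cells were higher in 5 of 8 (30.8% of all genes) and lower in 1 (21%), with 51.9% of all genes in either direction, and ureteric epithelium-like cells were higher in 5 (27.3%) and lower in 0 (13.2%), with 40.5% in either direction. For ureteric epithelium-like cells the count of lower genes was also 0 at an unadjusted p under 0.05 and by DESeq2, which called 3 higher. Podocyte-like cells were higher in 3 (31.5%) and lower in 3 (23.7%, with 55.2% in either direction). Stroma-like cells were higher in 3 (31.8%) and lower in 2 (16.8%, with 48.6% in either direction). Immune-like cells were higher in 3 (25.4%) and lower in 1 (23.2%, with 48.6% in either direction).

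Early nephron-like cells were higher in 1 (28.9%) and lower in 3 (22.7%, with 51.6% in either direction), and proximal tubule-like cells were lower in 4 (24.5%, with 56.3% in either direction) and higher in 0 (31.8%), with 0 also at an unadjusted p under 0.05 and by DESeq2. Loop of Henle-like cells were higher in 3 (27.8%) and lower in 1 (16.7%, with 44.5% in either direction), and distal tubule-like cells were higher in 2 (26.6%) and lower in 3 (17.8%, with 44.4% in either direction). In distal tubule-like cells the rises were Hspa1a and Hspa1b and the falls were Jun, Junb and Atf3. Mural-like cells were higher in 2 (10.1%) and lower in 0 (5.34%, with 15.5% in either direction), and 0 were lower at an unadjusted p under 0.05 and by DESeq2. Without the 7 dominating cells the counts were 2 higher and 3 lower in podocyte-like, 4 and 2 in immune-like, 3 and 0 in mural-like and 0 and 6 in proximal tubule-like cells. Shares in parentheses are those of all genes tested, and with 8 genes a single call is 12.5%.

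Within classes the levels differed between clusters. The clusters were formed without these genes and without the lists of related genes named below, and their levels are given as a description. In ureteric epithelium-like cells, cluster 15, led by Sprr2f, Fxyd4, Upk3a and Aqp2, had 52.3 and 43.7 CPM of Hspa1b, and cluster 31, led by the bud tip genes Ret and Wnt11, had 1.45 and 1.83 CPM. Jun was 204 and 429 CPM in cluster 15 against 111 and 147 CPM in cluster 31. Loop of Henle-like cells pooled cluster 19, led by Slc12a1 and Umod (24.6 and 16.6 CPM of Hspa1b, 6.99 and 5.16 of Fos), with cluster 0, led by Sim2 and Irx1 (1.82 and 2.58 CPM of Hspa1b, 0.560 and 0.738 of Fos).

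Endothelial-like cells showed the same kind of split for Fos. Cluster 2, led by Edn1 and Sox17, had 22.6 and 14.5 CPM, whereas the Plvap-led clusters 1 and 9 had 1.46 and 0.657 CPM and 1.57 and 3.57 CPM. Jun was also higher in cluster 2, at 321 and 380 CPM, than in cluster 1 (159 and 173 CPM) and cluster 9 (203 and 206 CPM). Of the immune-like cells, the Ccr2- and Lyz2-led cluster 18 had 273 and 179 CPM of Junb and the macrophage cluster 11, led by C1qa and Mrc1, had 105.3 and 56.6 CPM.

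The 4 stroma-like clusters differed in Egr1 and Jun. Egr1 reached 131 and 206 CPM in cluster 13, where Jun was 32.6 and 36.8 CPM. Clusters 5 (Nts, Penk, Alx1) and 24 (Postn, Clec3b) had Jun at 189 and 182 CPM and at 205 and 259 CPM, with Egr1 between 26.5 and 53.9 CPM. Cluster 23, the largest, had 55.1 and 80.3 CPM of Egr1 and 54.1 and 77.8 CPM of Jun. Cluster 26, with 31 and 18 cells led by Plau, Ifit3 and Ankrd1, stood out among early nephron-like cells: Hspa1a was 51.4 and 34.2 CPM, Hspa1b 56.5 and 70.1, and Jun 229 and 255. Clusters 3 and 28, which make up the rest of that class, had at most 0.925 CPM of either HSP70 gene. The name of cluster 26 is loose: its score was 0.522, and none of its 10 leading genes was a marker of the class. At Leiden resolution 2 a cluster led by Plau was named proximal tubule-like.

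**Figure D3:**
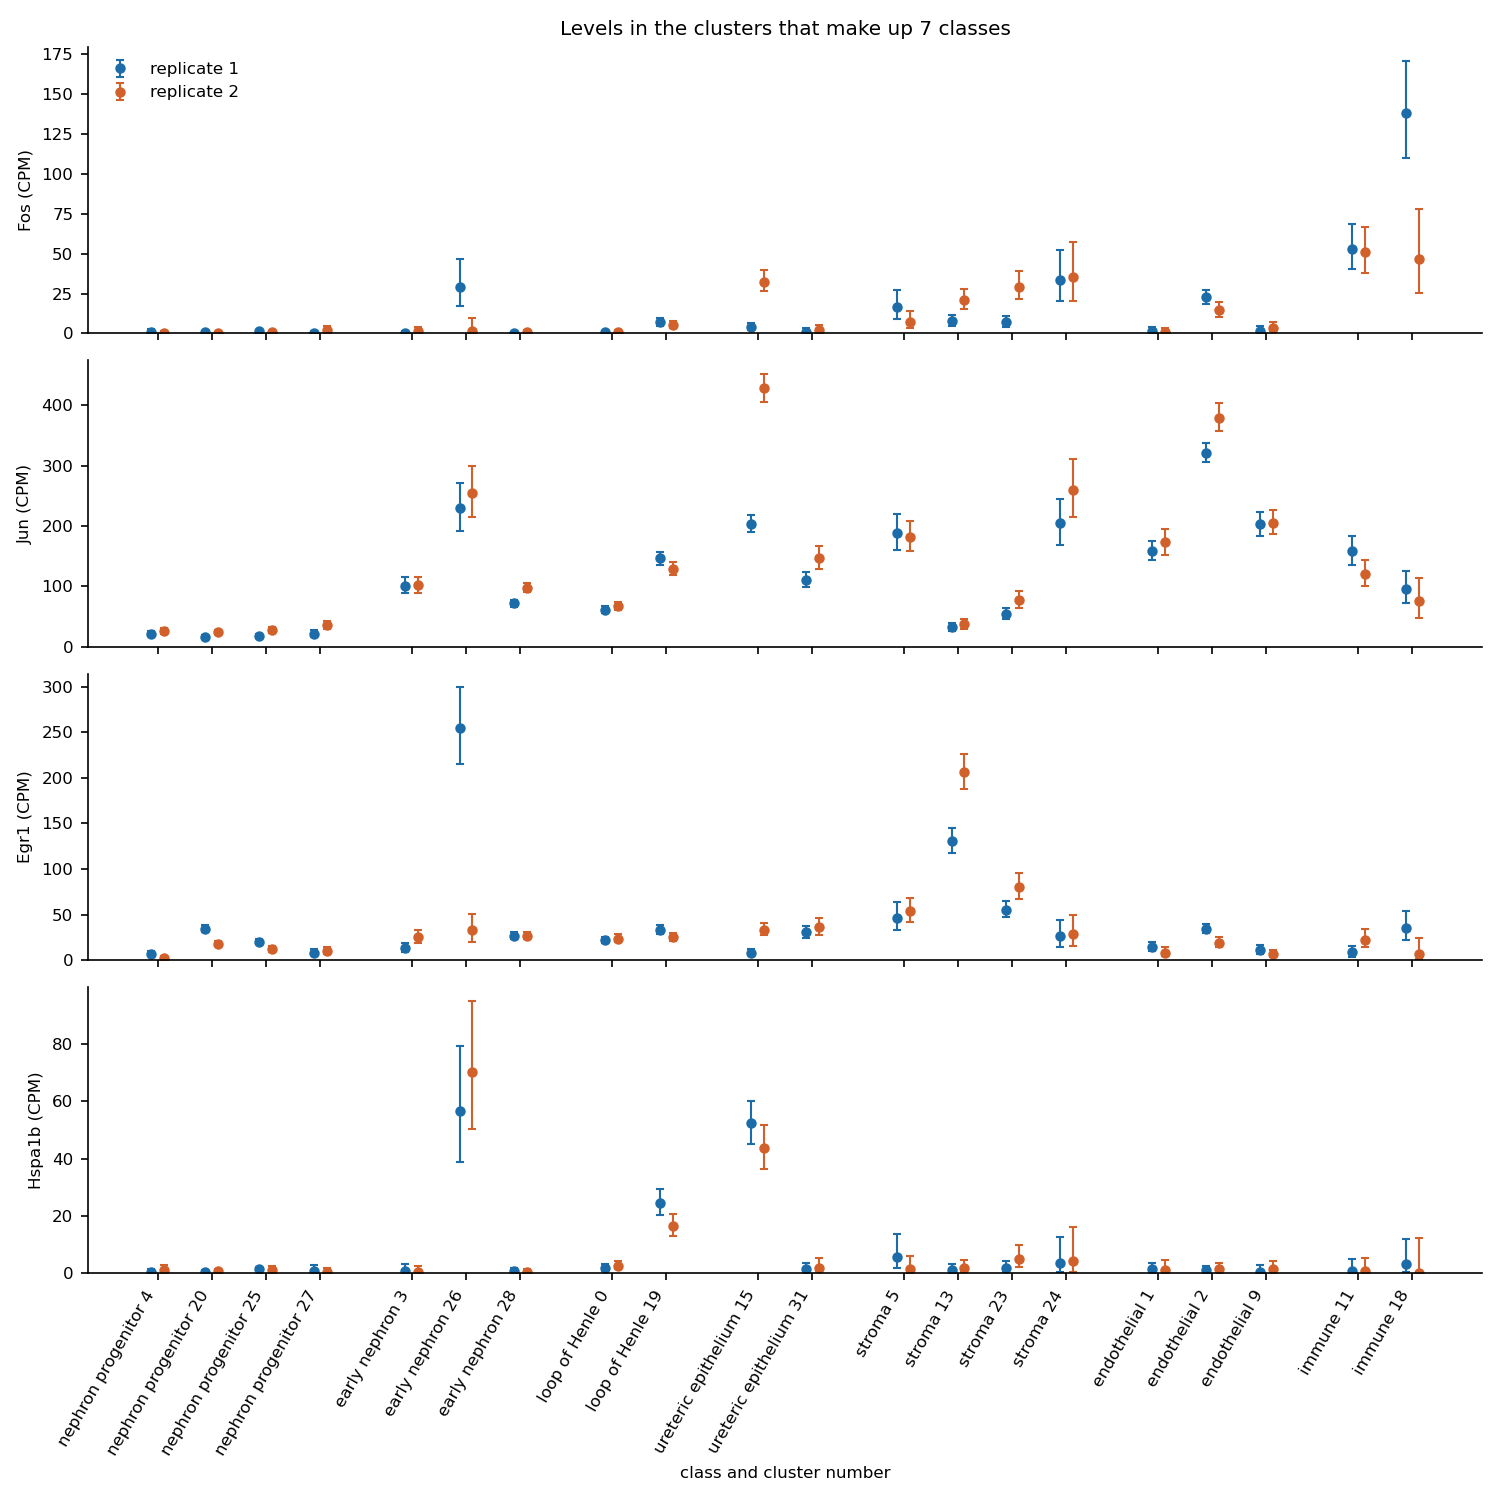
Levels (CPM, y axes) of Fos, Jun, Egr1 and Hspa1b in the clusters of 7 classes (x axis, class and cluster number), with 1 point per library and exact Poisson 95% intervals. Hspa1b is concentrated in cluster 15 (52.3 and 43.7 CPM), cluster 26 (56.5 and 70.1 CPM) and cluster 19 (24.6 and 16.6 CPM), and Egr1 in stroma cluster 13 (131 and 206 CPM).

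The share of UMIs held by the top cells differed between the genes, and it also follows how many UMIs a gene has. Fos was found in 552 of 10847 cells (5.09%), and the 108 cells with most UMIs (1% of cells) held 58.0% of its UMIs. For Atf3 they held 63.8%, for Hspa1b 51.6% and for Hspa1a 49.7%. Jun and Ier2, with many more UMIs, had 19.9% and 17.3% of them in such cells and a UMI in 43.9% and 45.1% of cells. The highest count in a cell was 223 UMIs for Jun and 169 UMIs for Atf3.

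These maxima came from 2 cells of replicate 2. An ureteric epithelium-like cell with 56592 UMIs and 9.76% mitochondrial UMIs carried 223 UMIs of Jun, 70 of Fos, 70 of Egr1, 61 of Atf3 and 9 of Fosb. A podocyte-like cell with 120777 UMIs and 3.23% mitochondrial UMIs carried 192 of Jun, 169 of Atf3, 82 of Egr1, 71 of Junb, 64 of Ier2 and 48 of Fos, and none of Hspa1a or Hspa1b. In all, 7 cells held at least 20% of a gene's UMIs in their class and library where that sum reached 50, and leaving them out is the alternative quoted above, chosen after the data were seen.

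**Figure D4:**
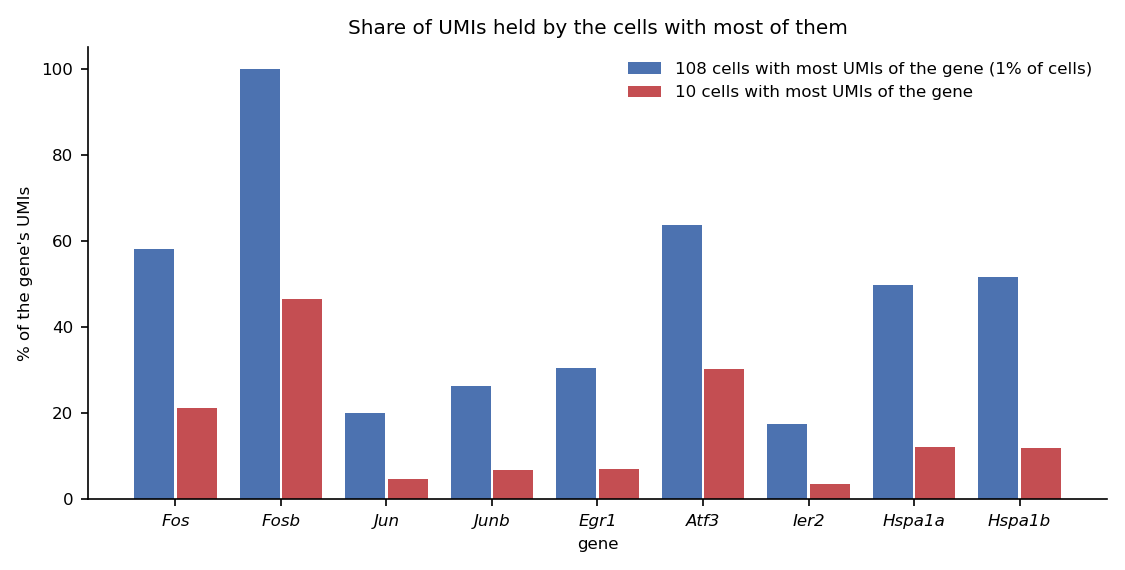
Share of each gene's UMIs (y axis, percent) held by the 108 cells (1% of 10847) and by the 10 cells with most UMIs of that gene. The 108 cells hold 58.0% for Fos and 63.8% for Atf3, and 17.3% for Ier2; Fosb reaches 100% because only 40 cells have a UMI.

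Most cells had few of the 7 immediate early genes at once. Of cells thinned to 4600 UMIs, 50.2% and 50.9% had a UMI of none of the 7, 4.26% and 4.79% had at least 3, and 1 and 4 cells had 6. The share with none was 71.7% and 73.8% in nephron progenitor-like cells, 21.7% and 24.5% in endothelial-like cells and 95.2% and 94.7% in erythroid-like cells. The share with at least 3 was highest in immune-like (19.7% and 11.7%) and endothelial-like cells (12.2% and 10.1%), apart from 3 of 27 mural-like cells of replicate 2.

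Within classes, Fos was found together with Egr1 more often than their separate shares would give. In thinned cells both were present in 23 and 28 cells where 6.92 and 6.86 were expected from the shares in each class, ratios of 3.32 and 4.08. The ratio was 2.83 and 4.16 for Fos with Atf3, 1.84 and 2.92 for Fos with Junb, and 1.89 and 2.43 for Junb with Egr1. Jun with Ier2 gave only 1.07 and 1.09, and Jun with Egr1 gave 1.23 and 0.98. Of the stroma-like cells of replicate 1 with a Fos UMI, 54.2% also had Egr1, against 15.6% of those without, and in replicate 2 these shares were 80.0% and 18.7%. Hspa1a with Hspa1b gave 4.35 and 2.70, on 7 and 4 cells. The HSP70 genes with Egr1 or Ier2 gave ratios of 0.25 to 1.09. With Junb they were 2.23 and 1.14 for Hspa1a and 2.11 and 1.22 for Hspa1b, on 6 to 14 cells, and with Fos 1 or 2 cells had both. Cells of a class differ in subtype and in state, and the ratios do not tell these apart.

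**Figure D5:**
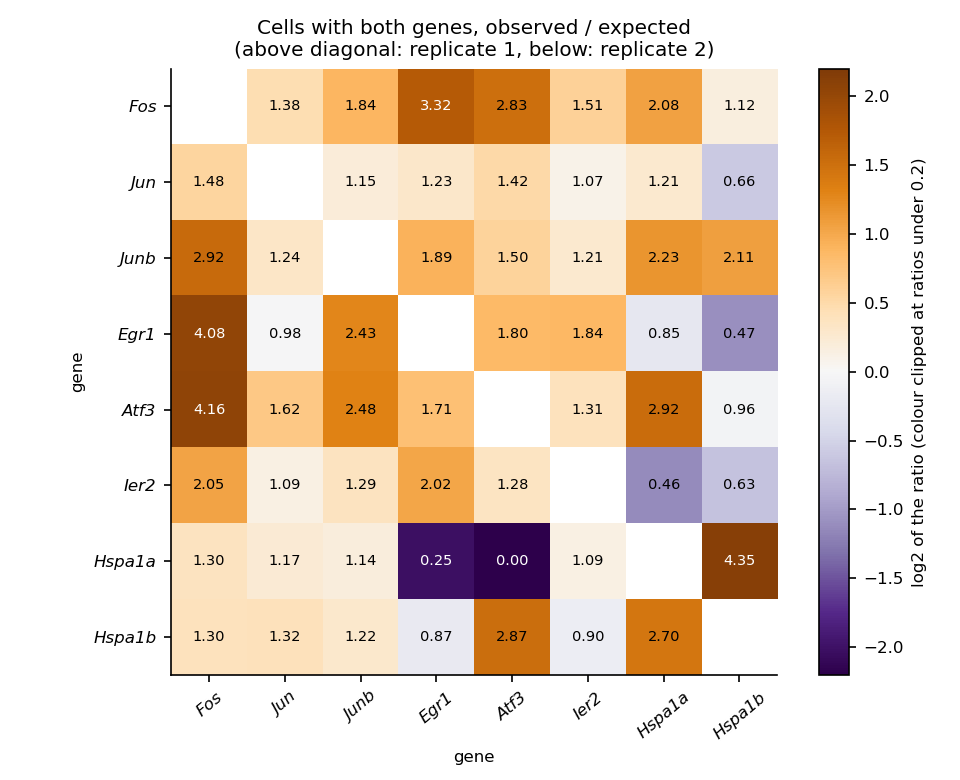
Number of thinned cells with a UMI of both genes, divided by the number expected from their shares within each class, for pairs of 8 genes (above the diagonal replicate 1, below it replicate 2; colour is the log2 ratio). The pairs of Fos with Egr1 (3.32 and 4.08) and with Atf3 (2.83 and 4.16) are high in both libraries, and Jun with Ier2 is near 1 (1.07 and 1.09).

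Differences between the libraries were modest over all cells and gene-specific within classes. The ratio of replicate 2 to replicate 1 was 1.34 for Fos, 1.20 for Jun, 1.12 for Egr1, 1.04 for Ier2, 0.993 for Junb, 0.901 for Hspa1b and 0.786 for Hspa1a. Atf3 had a ratio of 1.68, which was 1.05 without the 7 dominating cells, and Fos went to 1.18. Fosb had 18 UMIs in replicate 1 and 38 in replicate 2, of which 9 came from 1 cell. Jun was higher in replicate 2 in 11 of 12 classes, with Poisson intervals apart in 5 of them and in none the other way. Both libraries carry the same label, and with 1 library each these are differences between libraries with no test.

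Across the 12 class means, Fos varied with Junb (Pearson r = 0.88 on the log scale) and with Atf3 (0.82), and Hspa1a with Hspa1b (0.87), whereas r was 0.06 for Fos with Hspa1a and -0.04 for Fos with Hspa1b. With Hspa1a and Hspa1b, r was 0.61 and 0.34 for Egr1, 0.47 and 0.49 for Ier2, and 0.44 and 0.44 for Jun. It was 0.15 and 0.09 for Junb and 0.18 and 0.06 for Atf3. The value for Egr1 with Hspa1a was 0.31 in replicate 1 and 0.57 in replicate 2. These are descriptions over 12 classes that share the same 2 libraries and their free RNA. Among 12443 genes compared by class mean, those most like Fos were Map3k8 (0.96), Tmsb4x (0.95), Sp140 (0.93), Serinc3 (0.92) and Irf1 (0.91). Those most like Hspa1a were Shisa4 (0.93), Ccdc141 (0.93), Sphk1 (0.90), Notch3 (0.90) and Nlgn3 (0.90).

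Cell by cell, the genes most like Fos differed between classes. In 1244 thinned stroma-like cells, of which 44 had a Fos UMI, they were Junb (r = 0.36), Egr1 (0.30) and the phosphatase gene Dusp1 (0.28), followed by Ier2, Cyr61 and Nr4a1 at 0.21. In 1018 endothelial-like cells, of which 36 had Fos, the first 3 were Cyr61 (0.36), Gadd45g (0.32) and Ctgf (0.31), and none of the other 8 genes was among the first 10. Only 3 nephron progenitor-like cells had a Fos UMI at this depth, too few to read.

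Related genes were taken from 3 lists that do not hold the 9 genes: 27 further immediate early genes, 11 genes of feedback inhibitors such as dual-specificity phosphatases, Sprouty proteins and Socs3, and 22 other chaperones and heat shock genes. Of the further immediate early genes, 23 were testable, and they passed in 168 of 276 tests (91 higher and 77 lower), where 43.7% of tests passed over all genes. In endothelial-like cells 17 were higher (30.8% of all genes) and 2 lower (21%), with a median log2 change of 1.19, and in nephron progenitor-like cells 3 were higher (35.5%) and 16 lower (21.2%), with a median of -1.66. Stroma-like cells were higher in 14 (31.8%) and lower in 3 (16.8%). The median over all genes was -0.00017 in endothelial-like, 0.09 in nephron progenitor-like and 0.08 in stroma-like cells.

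Some genes of this list differed strongly between classes. In endothelial-like cells Sgk1, a serum- and glucocorticoid-induced kinase, stood at 521.5 and 591.0 CPM (log2 change 5.60 ± 0.09) and Klf2, a flow-responsive factor, at 717.6 and 802.2 CPM (5.24 ± 0.16). Ctgf, a secreted target of YAP signalling, was higher in mural-like (500.8 and 854.0 CPM, 5.92 ± 0.27) and stroma-like cells (239.8 and 225.7 CPM, 4.22 ± 0.16). Cebpb was higher in immune-like cells (662.3 and 452.6 CPM, 4.18 ± 0.11) and Ier3 in podocyte-like cells (215.5 and 279.9 CPM, 3.12 ± 0.15) and loop of Henle-like cells (205.5 and 220.1 CPM, 2.83 ± 0.15).

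Feedback genes passed in 91 of 132 tests (46 higher and 45 lower), against 43.7% over all genes. In endothelial-like cells 10 of 11 were higher (30.8% of all genes), among them Dusp1 (116.4 and 108.9 CPM, 3.25 ± 0.17) and Spry4 (65.3 and 43.9 CPM, 3.07 ± 0.14). In early nephron-like, proximal tubule-like and distal tubule-like cells 8 of 11 were lower (22.7%, 24.5% and 17.8% of all genes). In nephron progenitor-like cells 3 were higher (35.5%) and 4 lower (21.2%). Dusp1, which dephosphorylates MAP kinases, was lower in the last of these (-2.90 ± 0.30), and Socs3, an inhibitor of cytokine signalling, was higher (1.95 ± 0.23).

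Of the other heat shock genes, 21 were testable, and they passed in 147 of 252 tests (73 higher and 74 lower; over all genes 43.7% of tests passed). In ureteric epithelium-like cells 4 of 21 were higher (27.3% of all genes) and 4 lower (13.2%), with a median of -0.07 against 0.07 over all genes. Cryab, a small heat shock protein gene, was higher in ureteric epithelium-like (238.3 and 275.1 CPM, 3.27 ± 0.13) and also in podocyte-like cells (316.2 and 295.1 CPM, 3.57 ± 0.13), where the HSP70 pair was lower. It was also higher in mural-like (269.1 and 229.7 CPM, 3.36 ± 0.31), where Hspa1a was higher too, and in early nephron-like cells (2.37 ± 0.14). In loop of Henle-like cells Cryab was lower (-2.46 ± 0.27) while the pair was higher. Hspb1 was higher in mural-like (715.4 and 507.9 CPM, 3.998 ± 0.30), endothelial-like (132.9 and 94.9 CPM, 1.30 ± 0.19) and ureteric epithelium-like cells (0.95 ± 0.21), and lower in loop of Henle-like (-1.05 ± 0.23) and distal tubule-like cells (-1.09 ± 0.28). In nephron progenitor-like cells 10 of 21 were higher (35.5% of all genes) and 6 lower (21.2%), with a median of 0.11. Hspb1 (-2.76 ± 0.26) and Cryab (-1.93 ± 0.23) were among the lower ones.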

How the data were processed

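The deposited matrices hold raw counts of UMIs per gene and barcode, made by the authors with Cell Ranger: version 4 per the file headers, version 6.0.1 and build mm10 per the submitters' processing notes. The 10x 3' protocol is per the labels' protocols. Barcodes with at least 2000 UMIs and at most 10% mitochondrial UMIs were kept, and the doublets scored highest (4.98% and 4.12%) removed. Both libraries were clustered with scanpy 1.11.5 (2000 variable genes, 30 components, 15 neighbours, Leiden resolution 1) without the 9 genes and the 3 related lists. Clusters were named from marker lists (score of at least 0.3, at least 3 markers detected), and the names carry "-like". UMIs were summed per library and class and tested with edgeR 4.0.16 (R 4.3.3, filterByExpr, TMM, library as a block, 24 sums, 11 residual degrees of freedom), with Benjamini-Hochberg adjustment. Tested on simulated stroma-like sums of 14179 genes, it recovered 81.5% of 2-fold and 97.3% of 4-fold changes with 7 false calls. The simulation gave all classes the same profile, a fixed spread and no library effect, and changed genes in stroma-like sums only. In the data much of the transcriptome differs between classes, so these rates cannot stand for the comparisons made here. Depth ranged from 293522 UMIs (mural-like, replicate 1) to 26885815 (nephron progenitor-like, replicate 1). CPM are UMIs per 1000000 UMIs of the class. Intervals are exact Poisson, 95%, and cover counting error only. DESeq2 1.42.0 was an alternative. The text names the 9 genes, and from each list genes among the 3 with the largest change per class that passed in the same direction in both libraries on at least 50 UMIs, and the genes most correlated with Fos or Hspa1a. The members and lists were chosen with earlier results of these data known.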

Additional observations from a re-analysis of the deposited data

Results flagged for a closer look

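The barcodes removed for more than 10% mitochondrial UMIs, 690 and 768 in replicates 1 and 2, enter no comparison, and all 9 genes were found in them above the level that a count of 3 UMIs allows (0.120 CPM over both libraries). Pooled over both libraries, Fos stood at 10.7 CPM, Fosb at 0.918, Jun at 151.2, Junb at 31.3, Egr1 at 21.6, Atf3 at 6.67 and Ier2 at 38.6 CPM. Hspa1a stood at 14.6 CPM and Hspa1b at 25.9 CPM. The Fosb value rested on replicate 2, with 22 UMIs, against 1 UMI in replicate 1. By library, Hspa1b was 28.0 and 24.3 CPM in the removed barcodes against 5.18 and 4.66 in the kept cells, and Ier2 was 39.1 and 38.2 against 64.3 and 66.7. By marker gate, 20.7% and 21.9% of the removed barcodes were proximal tubule-like against 5.94% and 5.04% of the kept ones, and 12.5% and 13.3% were distal tubule-like against 0.863% and 0.587%. Within the loop of Henle-like gate Hspa1b was 55.0 and 22.3 CPM in removed and 18.9 and 12.7 CPM in kept barcodes. The part of damaged cells in these values was not tested.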

How the results depend on the processing

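An alternative counted only where a call could be computed in it, and leaving out a replicate is given apart. Ureteric epithelium-like and distal tubule-like calls, for example, could not be checked at the 5% mitochondrial limit. Of the 54 calls, 25 kept their direction and their side of the threshold in every alternative counted for them. The other 29 did not in at least 1. Of 681 values of the 54 calls, 597 were on the same side, 82 were no longer past the threshold and 2 changed direction. Calls were no longer past the threshold after thinning (14), at Leiden resolution 0.5 (11, with no distal tubule class), by gate (9, and 1 more turned) and without the replicate block (9). DESeq2 and resolution 2 lost 8 each and kept 46. The 5% mitochondrial limit lost 8, turned 1 and kept 29. It left fewer calls to check, so its count does not rank beside the others. At a mitochondrial limit of 5% only 8 classes were left, with 15 lower calls against 19 in the same classes before, and 12 were in both. The 2 values of calls that changed direction were Ier2 in loop of Henle-like cells (-0.059 by gate) and Hspa1a there (-0.34 at the 5% limit). Tests with no main call gave 527 values. Of these, 453 stayed without a call, 67 passed in the direction of the main fit and 7 passed in the opposite one. In early nephron-like cells the opposite calls were Hspa1b (-1.99 and -2.40 at resolutions 0.5 and 2, -0.82 by gate) and Egr1 (-0.66 and -0.76 at those resolutions). In proximal tubule-like cells they were Hspa1a (1.36 and 0.87 at those resolutions). Among the 54 calls, leaving out a replicate turned Ier2 in immune-like cells (0.39 with both, -0.020 without replicate 1, 0.71 without replicate 2) and Egr1 in mural-like cells (2.33 with both, -0.11 without replicate 2, 3.21 without replicate 1). Some tests with no call also changed sign, such as Fos in ureteric epithelium-like cells (1.06 with both, -1.02 without replicate 2). The cause was not tested. The library ratio without the dominating cells was 1.18 for Fos, 1.16 for Jun, 1.07 for Egr1 and 1.05 for Atf3. At the 5% limit it was 1.10 for Fos, 5.21 for Fosb, 0.890 for Junb, 2.01 for Atf3, 0.993 for Ier2, 0.505 for Hspa1a and 1.16 for Hspa1b. The share of cells with a UMI depends on depth. As the mean of both libraries it fell on thinning to 2.29% for Fos, 0.0767% for Fosb, 26.9% for Jun, 9.94% for Junb, 9.33% for Egr1, 1.71% for Atf3, 22.0% for Ier2, 1.13% for Hspa1a and 1.34% for Hspa1b. No paired analysis was possible because the libraries form 1 group; the library is a block in the fit of classes.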
